A study of Arabidopsis thaliana with 4 samples.

Results

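A small set of dim probe sets gave a low signal in both arrays of one genotype and a still lower one in both arrays of the other. No detection calls were used, so neither level shows that a transcript was present or absent. Members were selected on the deposited linear signals themselves: 60 or more in both arrays of one genotype and 30 or less in both arrays of the other. Of 22746 probe sets, 21 met these limits, 14 of them higher in xrn4-5 and 7 higher in Col-0. Because the signals of all 4 arrays chose the members, their values by genotype are given as a description, and no test was run on them.

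The samples were inflorescences of Arabidopsis thaliana at mixed stages, hybridized to the ATH1 oligonucleotide array. The wild-type group was Col-0, and the other group carried xrn4-5, 1 allele of XRN4, in the Col-0 ecotype. All plants were kept in long days (16 h light, 8 h dark) at 21 °C, and the labels do not state their age. Each genotype had 2 arrays, labelled flower 1 and flower 2, and nothing says whether these came from separately grown plants, so the spread between them may be technical.

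XRN4 is the cytoplasmic exoribonuclease of plants that digests RNA from an unprotected 5′ end, and thereby removes transcripts that have lost their cap or have been cut. A transcript level on an array is the balance of synthesis and decay in all cells of the tissue. In whole inflorescences, fewer cells of a type and less RNA per cell cannot be told apart. On an oligonucleotide array a low signal is set largely by background and by stray binding, so a value under 30 is a weak measurement and does not show that a transcript was missing.

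In each array 14.4% to 15.3% of probe sets lay at 30 or less and 76.9% to 78.1% at 60 or more. The annotation used here names no probe set for XRN4, so the mutated gene gave no check of the labels. None of the 8 floral organ identity markers had a named probe set either. The 3 measured tapetum markers of 6 summed to between 7477 and 8235 in xrn4-5 and between 9012 and 9040 in Col-0. The 2 measured late pollen markers of 5 summed to between 943 and 976 in xrn4-5 and between 1048 and 1344 in Col-0. Both anther lists thus had lower sums in each xrn4-5 array, and their part in the results below was not tested. Most of the tapetum sum came from ATA27, at 5235 and 5505 in xrn4-5 and 6481 and 5845 in Col-0. Of the single anther markers, A9 overlapped, at 1815 and 2209 in xrn4-5 and 2002 and 2668 in Col-0. The others were higher in both Col-0 arrays, as were 17.2% of all probe sets. The summed levels of the other lists overlapped between genotypes: 1 seed marker of 8 lay between 319 and 409 in xrn4-5 and between 182 and 670 in Col-0, and 3 root markers of 5 lay between 263 and 307 in xrn4-5 and between 253 and 269 in Col-0. Of the single root markers, EXPA7 was higher in both Col-0 arrays, at 79.4 and 76.6 in xrn4-5 and 102 and 110 in Col-0. EXPA18 was higher in both xrn4-5 arrays, as were 21.4% of all probe sets, at 135 and 104 in xrn4-5 and 78.2 and 86.3 in Col-0. PYK10 overlapped. No measured marker of any list was at 30 or less in all 4 arrays.

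The 14 probe sets higher in xrn4-5 were 0.0615% of all probe sets, and the 7 higher in Col-0 were 0.0308%. The same limits were applied to the arrays grouped by sample number, each side holding 1 array of each genotype. On that grouping 6 probe sets (0.0264%) were high in flower 1 and low in flower 2, and 11 (0.0484%) were high in flower 2 and low in flower 1. The genotypes therefore gave 21 probe sets and the sample numbers 17. The larger direction of the genotype grouping, 14, stands beside 11 for the larger direction of the number grouping. The excess of 14 over 7 depended on the limits and on single arrays. With a high limit of 50 the counts were 28 and 27, and with a low limit of 20 they were 3 and 3. With the limits of 60 and 30 on 3 arrays, which leaves 1 condition fewer to meet, the counts were 48 and 58 without array 2 of xrn4-5 and 52 and 56 without array 1 of Col-0, so the larger count was then in Col-0. They were 56 and 48 without array 1 of xrn4-5 and 46 and 44 without array 2 of Col-0. Membership by itself does not set a probe set apart from those that differ by sample number. The labels do not state what else set flower 1 apart from flower 2. The number grouping is therefore no measure of noise alone, and its counts do not show that the members are noise.

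**Figure D1:**
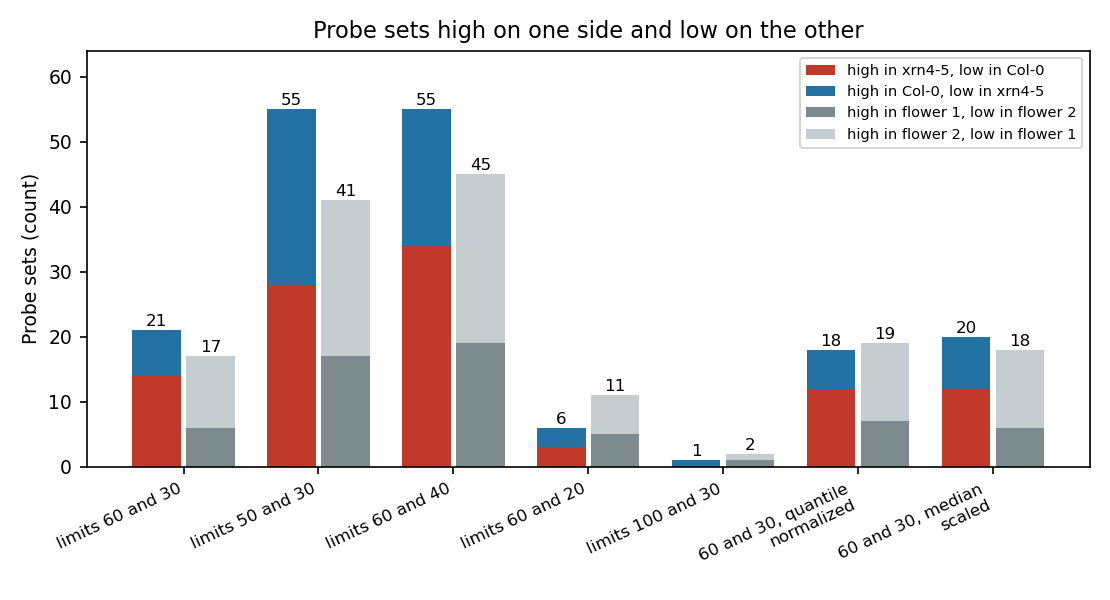
Bars count the probe sets that were high in both arrays of one side and low in both arrays of the other, for the genotype grouping (left bar, red and blue) and the sample number grouping (right bar, greys), under several limits and scalings; the number on each bar is its total. With limits of 60 and 30 the totals are 21 and 17, and with a low limit of 20 they are 6 and 11.

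Single arrays were also set against each other, 1 against 1. For 2 arrays of the same genotype, the number of probe sets at 60 or more in one and at 30 or less in the other lay between 128 and 188, over 4 ordered pairs. For 2 arrays of different genotype, it lay between 122 and 172, over 8 ordered pairs. The means were 156 for both kinds of pair. The lowest count, 122, was for array 1 of xrn4-5 high and array 1 of Col-0 low, and the highest, 188, was for array 2 of xrn4-5 high and array 1 of xrn4-5 low. The 2 arrays of a genotype always differ in sample number, while pairs of different genotype include both same-numbered and differently numbered arrays. Same-numbered pairs of different genotype gave 122, 158, 162 and 153, and differently numbered ones gave 154, 159, 166 and 172. Only the differently numbered pairs match the pairs within a genotype in this respect. With both kinds pooled, a difference across the limits of 60 and 30 was about as frequent within a genotype as between genotypes.

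**Figure D2:**
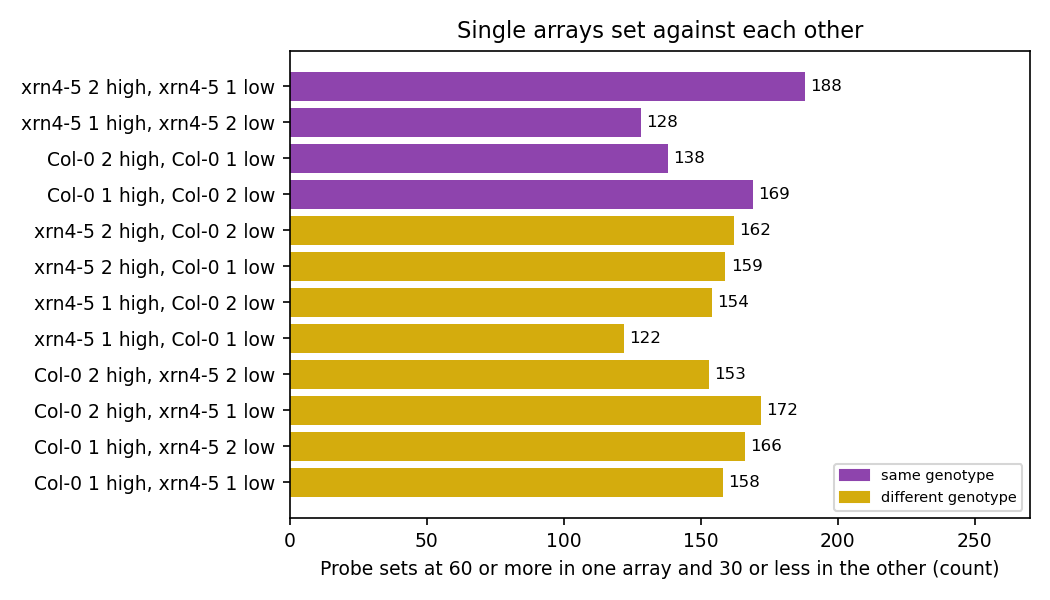
Each bar counts the probe sets at 60 or more in one array and at 30 or less in another, for the 12 ordered pairs of the 4 arrays, purple for 2 arrays of the same genotype and yellow for 2 of different genotype. The purple bars run from 128 to 188 and the yellow bars from 122 to 172.

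Seen from the low side, 2692 probe sets were at 30 or less in both Col-0 arrays. Of these, 2105 (78.2%) were also at 30 or less in both xrn4-5 arrays, and 14 (0.52%) were at 60 or more in both. In the other direction, 2647 probe sets were at 30 or less in both xrn4-5 arrays, and 7 of them (0.264%) were at 60 or more in both Col-0 arrays. The remaining 573 and 535 probe sets met neither condition. Grouped by sample number, 2677 probe sets were at 30 or less in both flower 2 arrays, and 6 (0.224%) were at 60 or more in both flower 1 arrays. Of 2636 at 30 or less in both flower 1 arrays, 11 (0.417%) were at 60 or more in both flower 2 arrays. Most probe sets that were dim in both arrays of one genotype were thus dim in all 4 arrays.

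Within the 14 members higher in xrn4-5, signals in xrn4-5 ran from 60 to 147 and signals in Col-0 from 7.3 to 29.6. The gap of a member is the lowest signal of its high genotype over the highest signal of its low genotype. As its lower term is a signal near background, the gap serves to order the members and is no measure of how much a transcript differed. It ran from 2.07 to 6.87 in this direction, with a median of 2.65, and 4 members had a gap of at least 4. No member of this direction reached 100 in both xrn4-5 arrays. Of the 14, 11 have exactly 1 named gene and 3 are not listed in the annotation used here. Unless a role is given below, the reference names the gene only by its locus.

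AT3G43670 had the widest gap among them. Its probe set, 252698_at, gave 80.4 and 147 in the xrn4-5 arrays and 7.3 and 11.7 in the Col-0 arrays. Its means were 114 ± 47.3 (SD, n = 2) and 9.50 ± 3.11. The xrn4-5 arrays differed from each other by more than the Col-0 arrays did.

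ATSPO11-1 encodes a relative of the topoisomerase subunit that makes the DNA breaks from which meiotic recombination starts. Its probe set, 257179_at, gave 66.6 and 65.4 in xrn4-5 and 15.0 and 14.2 in Col-0. The means were 66.0 ± 0.849 (SD, n = 2) and 14.6 ± 0.566. Arrays of a genotype lay close together in both groups. The signal in xrn4-5 nonetheless lay only a few units above the limit of 60.

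MYBC1, a MYB-type transcription factor gene known for a negative role in freezing tolerance, lay exactly on the limit in 1 array. Its probe set, 267077_at, gave 60 and 108 in xrn4-5 and 11.2 and 23.4 in Col-0. The means were 84.1 ± 34.1 (SD, n = 2) and 17.3 ± 8.63. In both genotypes array 2 had the higher signal.

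Among the genes named by locus alone, AT2G47720 and AT5G50360 also had gaps above 4. AT2G47720 gave 69.4 and 76.7 in xrn4-5 and 16.7 and 8.7 in Col-0. AT5G50360 gave 86.2 and 107 in xrn4-5 and 17.1 and 21.4 in Col-0, means of 96.8 ± 15.0 (SD, n = 2) and 19.3 ± 3.04. The limits themselves set the genotypes apart in every member, so this separation is no result. Relative to their level, the Col-0 arrays of AT2G47720 differed from each other by more than its xrn4-5 arrays did.

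The next genes had gaps between 2.5 and 3. AT1G61500 gave 72.1 and 64.6 in xrn4-5 and 21.7 and 12.1 in Col-0. AT4G18540 gave 93.0 and 60.8 in xrn4-5 and 22.1 and 14 in Col-0, with array 1 the higher one in each genotype. AT3G56250 gave 73.0 and 93.4 in xrn4-5 and 19.9 and 27.2 in Col-0, with array 2 the higher one in each. These genes differ in which array is higher, and in AT4G18540 the dimmer xrn4-5 array was barely above the limit.

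AT1G77830 had closely matching arrays in both genotypes. It gave 73.3 and 72.0 in xrn4-5 and 27.3 and 27.5 in Col-0, means of 72.7 ± 0.919 (SD, n = 2) and 27.4 ± 0.141. AT3G50730 gave 68.6 and 96.6 in xrn4-5 and 27.6 and 12.3 in Col-0. AT2G37880 gave 61.7 and 102 in xrn4-5 and 28.9 and 10.1 in Col-0. In the last pair of genes the array that was higher in xrn4-5 was array 2 and the array that was higher in Col-0 was array 1.

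The 3 probe sets without a named gene lay near the limits. Probe set 259481_at gave 79.7 and 68.0 in xrn4-5 and 19.7 and 28.7 in Col-0. Probe set 263740_at gave 62.0 and 63.6 in xrn4-5 and 27.4 and 17.7 in Col-0. Probe set 265178_at gave 84.2 and 61.3 in xrn4-5 and 14.7 and 29.6 in Col-0. Their gaps, all under 2.4, are among the narrowest in the set.

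**Figure D3:**
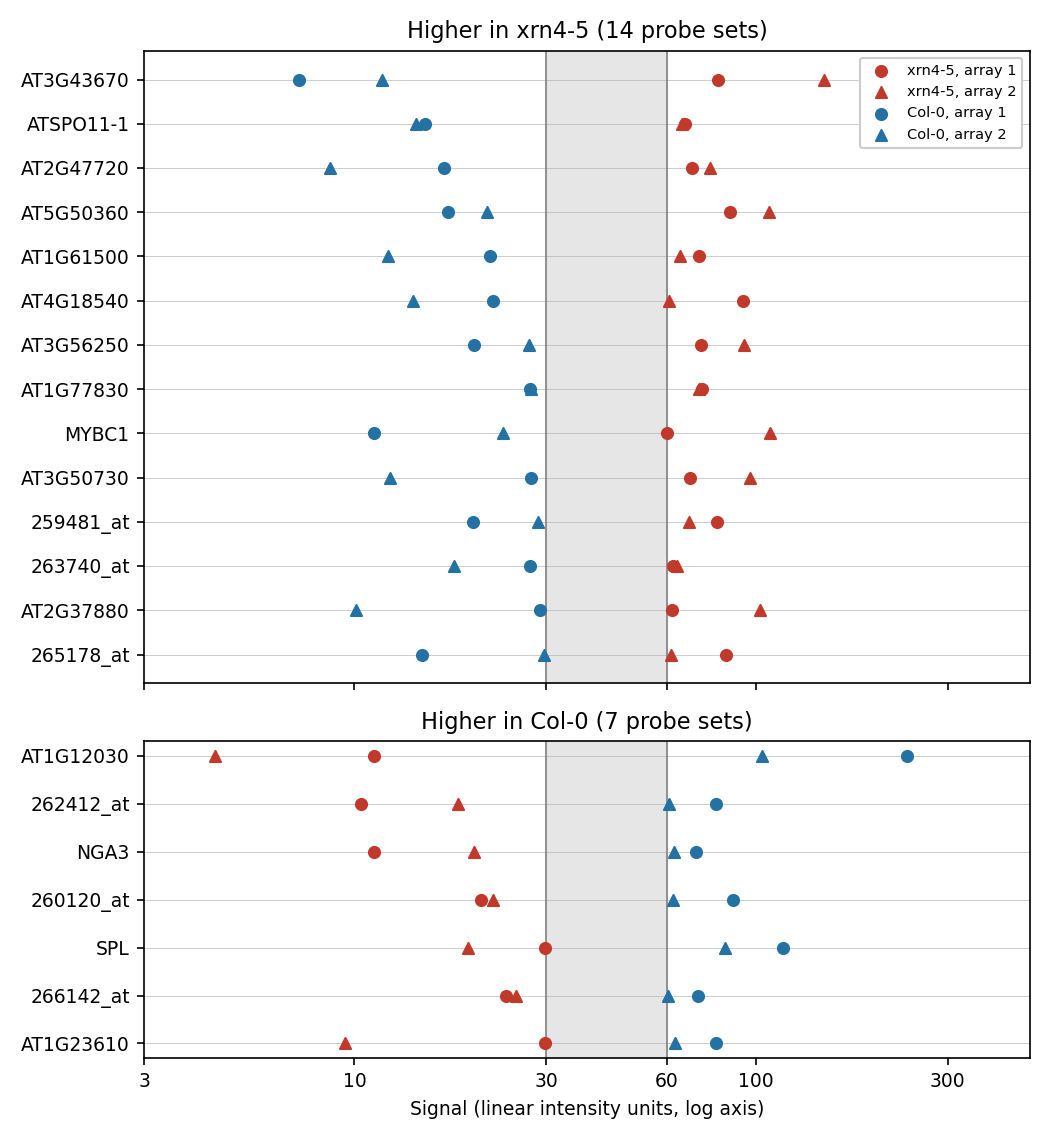
Signals of the 21 members in each array on a log axis, one line per probe set, red for xrn4-5 and blue for Col-0, circles for array 1 and triangles for array 2; the grey band spans the excluded range from 30 to 60. Members are ordered by gap within each direction, from AT3G43670 (6.87) down to 265178_at (2.07) and from AT1G12030 (9.25) down to AT1G23610 (2.10).

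Within the 7 members higher in Col-0, signals in Col-0 ran from 60.4 to 238 and signals in xrn4-5 from 4.5 to 29.9. Gaps ran from 2.10 to 9.25, with a median of 2.81. Of the 7, 4 have exactly 1 named gene and 3 are not listed.

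AT1G12030 had the widest gap of all 21 members. Its probe set, 257421_at, gave 11.2 and 4.5 in xrn4-5 and 238 and 104 in Col-0. The means were 7.85 ± 4.74 and 171 ± 94.8 (SD, n = 2). It was the only member, in either direction, with both high arrays at 100 or more. The Col-0 arrays differed from each other by more than 2-fold.

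SPL, also called SPOROCYTELESS or NOZZLE, is a nuclear regulator required for the first sporogenous cells in anthers and ovules. Its probe set, 253862_at, gave 29.9 and 19.2 in xrn4-5 and 117 and 83.9 in Col-0, means of 24.6 ± 7.57 (SD, n = 2) and 100 ± 23.3. One xrn4-5 array thus lay just under the limit of 30. The summed tapetum markers were lower in xrn4-5 too, at 7477 to 8235 against 9012 to 9040 in Col-0. The late pollen sums were also lower, at 943 to 976 in xrn4-5 against 1048 to 1344 in Col-0. Of the measured anther markers, only A9 overlapped between genotypes. ATSPO11-1, a gene of meiosis, was a member in the opposite direction, at 66.6 and 65.4 in xrn4-5 and 15.0 and 14.2 in Col-0. Any link between SPL and these genes was not tested.

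NGA3, a B3-domain transcription factor of the NGATHA family, is known for redundant roles with its relatives in style and leaf margin development. Its probe set, 261568_at, gave 11.2 and 19.8 in xrn4-5 and 70.8 and 62.3 in Col-0. The means were 15.5 ± 6.08 (SD, n = 2) and 66.6 ± 6.01. The arrays of each genotype differed by less than 10 signal units.

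AT1G23610 gave 29.8 and 9.5 in xrn4-5 and 79.3 and 62.7 in Col-0. One of its xrn4-5 arrays lay just under the limit of 30 and the other far under it. Among the probe sets without a named gene, 262412_at gave 10.4 and 18.1 in xrn4-5 and 79.4 and 60.7 in Col-0. Probe set 260120_at gave 20.7 and 22.1 in xrn4-5 and 87.7 and 62.2 in Col-0. Probe set 266142_at gave 23.9 and 25.2 in xrn4-5 and 71.8 and 60.4 in Col-0. In all 7 members of this direction array 1 of Col-0 was brighter than array 2. The share of all probe sets with that order was not computed. Over all probe sets, 169 were at 60 or more in array 1 of Col-0 and at 30 or less in array 2, and 138 the reverse.

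AT3G49160 met every limit but one. It gave 235 and 399 in xrn4-5, above every member of its direction, and 32.6 and 22.3 in Col-0. Array 1 of Col-0 was above 30, so the gene is no member. The limits thus left out the probe set with the larger signals and took in MYBC1, which touched 60.

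Other probe sets lay as near to the limits. On the inner side in xrn4-5 were MYBC1 and AT4G18540, whose lowest high signals were 60 and 60.8, and 265178_at and AT2G37880, whose highest low signals were 29.6 and 28.9. Just outside, AT5G56370 gave 76.8 and 59.5 in xrn4-5 and 8.0 and 3.6 in Col-0. Probe set 258945_at gave 58.4 and 57.8 against 16.3 and 18.8, and 259974_at gave 64.3 and 65.7 against 30.2 and 25. AT5G56370 had a wider separation than most members, which shows how the limits cut through a continuous range.

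In the Col-0 direction, 266142_at and 262412_at were nearest to 60 from above, at 60.4 and 60.7, and SPL and AT1G23610 were nearest to 30 from below, at 29.9 and 29.8. Just outside, AT2G19660 gave 62.2 and 59.3 in Col-0 and 23.3 and 9.9 in xrn4-5, and 245979_at gave 59.4 and 60.1 against 21.9 and 5.8. AT5G51440 gave 69.2 and 60 in Col-0 and 30.3 and 8.5 in xrn4-5. AT2G27080 gave 103 and 137 in Col-0 and 30.7 and 19.6 in xrn4-5, so it missed by less than 1 signal unit. Within 5 units under the limit of 60 there were 5 further probe sets higher in xrn4-5 and 9 higher in Col-0, and within 5 units over the limit of 30 there were 4 in each direction.

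For each pair of same-numbered arrays the authors also deposited a log2 ratio (xrn4-5 to Col-0) and a change p-value. These come from the same arrays that chose the members and are given as a description. In the authors' deposited table all 14 and all 7 members had ratios with the direction of the rule in both pairs, with sizes from 0.8 to 3.7 and from 0.8 to 4.1. A log2 ratio of at least 1 in both pairs was found for 9 of the 14 members in the authors' deposited table, against 0.919% of all probe sets. A ratio of -1 or less in both pairs was found for 6 of the 7 in the authors' deposited table, against 0.862% of all probe sets.

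A change p-value near 0 marks an increase and one near 1 a decrease in the authors' deposited table. Values under 0.01 in both pairs were given to 1 of the 14 members, AT3G43670, and to 2.31% of probe sets over the whole of the authors' deposited table. Values over 0.99 in both pairs were given to 1 of the 7, AT1G12030, and to 1.93% of probe sets over the whole of the authors' deposited table. In the authors' deposited table AT3G43670 had log2 ratios of 3.3 and 3.7 with a change p-value of 2e-05 in both pairs. AT1G12030 had -3.7 and -4.1 in the authors' deposited table, with change p-values of 0.999954 and 0.99998. These members also had the widest gap of their direction, but gap and change p-value come from the same 4 arrays, so neither is support for the other.

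Some other members had a change p-value of exactly 0.5, halfway between increase and decrease, in the authors' deposited table. It stood there in at least 1 pair for 6 of the 14 and 1 of the 7. The share of all probe sets with this value was not computed, so nothing about the members is drawn from these counts. In both pairs the change p-value stood at 0.5 for 263740_at and 265178_at. It was on the side of the rule or at 0.5 in both pairs for 13 of the 14 and for all 7. The exception, AT1G61500, had 0.715033 in the flower 1 pair of the authors' deposited table, on the side of a decrease, beside a log2 ratio of 0.8. The authors' deposited table gave ATSPO11-1 ratios of 2.1 and 2.0 with change p-values of 0.041201 and 0.5. For NGA3 the authors' deposited table gave -2.1 and -1.6 with 0.532344 and 0.5, and for SPL it gave -2.7 and -2.2 with 0.692594 and 0.955851. AT3G49160, just outside the limits, had 2.2 and 3.6 with 2e-05 in both pairs of the authors' deposited table.

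**Figure D4:**
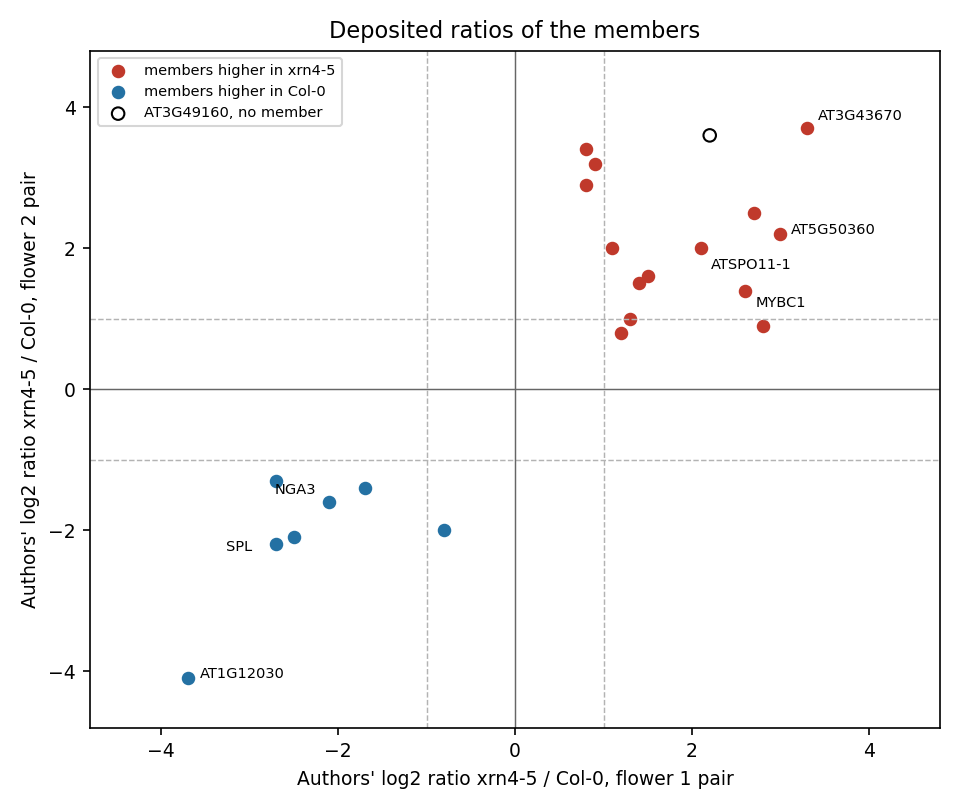
Log2 ratios (xrn4-5 to Col-0) from the authors' deposited table, flower 1 pair on the horizontal and flower 2 pair on the vertical axis, for the 14 members higher in xrn4-5 (red), the 7 higher in Col-0 (blue) and AT3G49160 (open circle); dashed lines mark -1 and 1. All members lie in the quadrant of their direction, and AT3G43670 (3.3, 3.7) and AT1G12030 (-3.7, -4.1) lie farthest out.

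The authors' ratios differ from those of the deposited signals. Over 42 values, 2 for each member, the ratio in the authors' deposited table was smaller in size 25 times and larger 17 times, with a median difference of 0.14 on the log2 scale. The widest difference was for AT2G37880 in the flower 2 pair, with a log2 ratio of 3.34 from the signals and 2.0 in the authors' deposited table. For AT2G47720 in the flower 1 pair the values were 2.06 from the signals and 0.9 in the authors' deposited table. The sources used here do not say how the authors computed their ratio.

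The members shared little that the rule had not used. All 21 probe sets carry the plain suffix of the array design, as do 95.3% of all probe sets, with none of the suffixes that mark probes shared by several transcripts. All 15 members with exactly 1 named gene are protein-coding in the TAIR10.1 annotation, against 92.6% of the named probe sets overall and 68.1% of those at 30 or less in all 4 arrays. No named members are neighbours on a chromosome: the closest are 417 genes apart in annotation order.

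The genes next to the named members were looked up by annotation order. Of 15 measured neighbours of members higher in xrn4-5, 6 had both xrn4-5 arrays above both Col-0 arrays and 0 had them below. Over all probe sets 21.4% had both xrn4-5 arrays above both Col-0 arrays, and 17.2% had them below. Of 2 measured neighbours of members higher in Col-0, 1 had both Col-0 arrays above both xrn4-5 arrays. On either side of AT2G37880, AT2G37870 gave 270 and 286 in xrn4-5 and 170 and 161 in Col-0, and AT2G37890 gave 262 and 256 in xrn4-5 and 180 and 153 in Col-0. Next to AT1G23610, AT1G23600 gave 208 and 211 in xrn4-5 and 336 and 295 in Col-0. No neighbour met the limits of 60 and 30. With so few neighbours measured, nothing is drawn from these counts.

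Probe sets that met the limits by sample number had signals of the same order. In the flower 2 direction the widest gaps belonged to AT4G33980, AT3G28320 and AT5G35760. AT4G33980 gave 3.5 and 18.7 in flower 1 and 144 and 143 in flower 2, for xrn4-5 and Col-0 in turn. AT3G28320 gave 4.1 and 15.9 in flower 1 and 79.5 and 81.6 in flower 2, and AT5G35760 gave 14.5 and 14.8 in flower 1 and 68.5 and 73.7 in flower 2. In the flower 1 direction, 260380_at gave 98.5 and 63.7 in flower 1 and 3.0 and 6.4 in flower 2. AT1G49030 gave 61.4 and 66.5 in flower 1 and 15.0 and 6.9 in flower 2, and 259331_at gave 112 and 110 in flower 1 and 28.7 and 12.5 in flower 2. Their gaps, up to 7.66 and 9.95, were as wide as those of AT3G43670 and AT1G12030.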

How the data were processed

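The authors deposited linear intensities, 1 value for each probe set on each array, and named GCOS, with no version, per the submitters' processing notes. The 2% trimmed mean was the same in all 4 arrays, which means that a common scaling preceded deposition, and no detection calls were used here. The authors also deposited log2 ratios and change p-values per same-numbered pair, per the file headers, and these were used only as their own comparison. Here, 64 control probe sets were set aside (0 of them met the limits), and limits of 60 and 30 were applied to the values of the other 22746. No test was run, since the same 4 arrays chose the members. Members, lists and limits were chosen with earlier results of these data known. Gene names are those of the platform annotation, brought up to TAIR10.1: 13513 probe sets have 1 gene, 503 several and 8730 are not listed. For a gene with several probe sets, that with the highest mean was used for neighbours, markers and relatives. All members with 1 named gene are named, as are up to 6 others per direction, those nearest each limit, and the 3 widest gaps per direction of the number grouping. A planned search for promoter motifs was not run, as no promoter sequences were used here. No array repeated another of its genotype: 47 of 22810 values were identical in xrn4-5 and 46 in Col-0. Python 3.11.15, pandas 2.3.3 and matplotlib 3.10.9 were used. Alternatives changed the limits, the scaling, the suffixes counted and the arrays used.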

Additional observations from a re-analysis of the deposited data

How the results depend on the processing

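Counts are given as higher in xrn4-5, higher in Col-0, high in flower 1 and high in flower 2. They were 14, 7, 6 and 11 with limits of 60 and 30. A high limit of 50 gave 28, 27, 17 and 24, and one of 100 gave 0, 1, 1 and 1. A low limit of 20 gave 3, 3, 5 and 6, and one of 40 gave 34, 21, 19 and 26. Quantile normalization gave 12, 6, 7 and 12 and kept 11 and 5 of the 14 and 7 members, and median scaling gave 12, 8, 6 and 12 and kept 12 and 7. Leaving out the probe sets with cross-hybridizing suffixes left all 4 counts as they were. Leaving out any 1 array, which leaves 1 condition fewer to meet, gave 46 to 56, 44 to 58, 41 to 52 and 45 to 65. Among the members, the authors' deposited log2 ratios reached a size of 1 in both pairs for 9 of 14 and 6 of 7. The count was not larger in xrn4-5 with a high limit of 100 (0 and 1), with a low limit of 20 (3 and 3), without array 2 of xrn4-5 (48 and 58) or without array 1 of Col-0 (52 and 56); beyond the fewer arrays, the cause was not tested. No paired test was run because the counts come from no test, so there is no fit to which a block could be added. Counts for single same-numbered arrays and the authors' deposited ratios per same-numbered pair are given as a description. With 2 arrays per genotype and signals this near background, the counts have no error estimate.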

Other observations

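Relatives and partners of the members with known roles in flowers were looked up after the members' values had been seen, with no test. SPO11-2, the partner of ATSPO11-1 in making meiotic DNA breaks, gave 77.7 and 117 in xrn4-5 and 84.5 and 66.6 in Col-0, and the groups overlapped. SDS, a cyclin-like protein of meiosis, gave 37.7 and 31.6 in xrn4-5 and 30.7 and 59.1 in Col-0, and overlapped as well. EMS1, a receptor kinase that specifies the tapetum of the anther, gave 518 and 526 in xrn4-5 and 754 and 578 in Col-0, so both Col-0 arrays were higher. Of the other NGATHA genes, NGA1 gave 238 and 259 in xrn4-5 and 301 and 274 in Col-0, both Col-0 arrays higher. The order seen for EMS1 and NGA1 was that of 17.2% of all probe sets. NGA2 gave 179 and 253 in xrn4-5 and 184 and 156 in Col-0, and NGA4 gave 157 and 138 in xrn4-5 and 142 and 129 in Col-0, with overlapping groups. None of these genes met the limits of 60 and 30 in either direction.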
